A study of Mus musculus with 24 samples.

Results

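The type I interferon response genes described here are 35 genes, taken by symbol from the 24421 genes counted in each library: sensors of viral nucleic acid, the transcription factors of the response, and genes that interferon induces. CD8 T cells, sorted as positive for CD45, CD3 and CD8, came from the pancreas or the blood of KC mice or of wild-type (WT) B6 mice. The KC strain serves as a model of pancreatic cancer whose pancreas develops lesions with age, and its alleles are not listed in the labels. Total RNA of 24 libraries was sequenced. KC pancreas gave 12 of them: 3 of mice 4 weeks old, 2 of 9 weeks, 3 of 13 weeks, 2 of 20 weeks and 2 of 30 weeks. KC blood gave 9: 2 of mice 4 weeks old, 1 of 9 weeks, 3 of 13 weeks, 1 of 20 weeks and 2 of 30 weeks. WT mice gave 3: pancreas at 9 weeks and at 30 weeks, and blood at 30 weeks. The 9-week age stands in the sample labels but not in the series' design text. Each library is called by its title, where P8 at the end marks pancreas and B8 marks blood. Nothing in the labels says that the libraries of a group came from separate animals, so the p-values measure only the spread between these libraries, which may be technical.

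Type I interferons are cytokines made by cells that detect viral or misplaced nucleic acid. They bind a receptor found on nearly all cells, and the kinases Jak1 and Tyk2 then activate Stat2, which joins Irf9 in a complex that binds interferon-stimulated response elements in the promoters of target genes. In T cells the response is known to shape survival, memory and effector function, and many of its products block viral replication in the cell itself.

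The promoters of the response genes were searched for the core letters of that element, GAAANNGAAA or its reverse complement TTTCNNTTTC, in the window from 250 bases before to 50 bases after each start in the RefSeq table of build GRCm38.p6. Matches could overlap each other, and no other motif was searched. Of the 35 genes, 27 had a window, and Mx2, Dhx58, Mx1, Usp18, Zbp1, Oas2, Parp9 and Rtp4 had none in the table. The letters occurred in 10 of the 27 genes (37.0%), namely Isg15, Ifit1, Ifit3, Bst2, Oas1a, Oas3, Rsad2, Stat2, Ifih1 and Eif2ak2, and in 3.99% of the 27025 genes of the table. A match is a description of these letters, and no match says only that they are not in this window. The 200 bases before the start are shown for Isg15, Ifit1 and Ifit3, which hold the letters in this stretch and are described by library below, and for Mavs, which does not hold them and was the single gene past the test in any comparison. Capitals mark the matches. The windows are chr4:156200819-156201018 on the minus strand for Isg15, chr19:34640689-34640888 on the plus strand for Ifit1, chr19:34583329-34583528 on the plus strand for Ifit3 and chr2:131233863-131234062 on the plus strand for Mavs, each printed 5′ to 3′ towards the gene.
Isg15: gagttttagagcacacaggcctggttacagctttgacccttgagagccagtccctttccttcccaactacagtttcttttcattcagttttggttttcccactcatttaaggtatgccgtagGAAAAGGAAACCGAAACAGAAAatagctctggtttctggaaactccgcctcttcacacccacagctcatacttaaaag
Ifit1: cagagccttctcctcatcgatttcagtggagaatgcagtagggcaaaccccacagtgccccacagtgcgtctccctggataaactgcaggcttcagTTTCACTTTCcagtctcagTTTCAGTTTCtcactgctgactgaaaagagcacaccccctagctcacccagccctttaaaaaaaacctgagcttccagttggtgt
Ifit3: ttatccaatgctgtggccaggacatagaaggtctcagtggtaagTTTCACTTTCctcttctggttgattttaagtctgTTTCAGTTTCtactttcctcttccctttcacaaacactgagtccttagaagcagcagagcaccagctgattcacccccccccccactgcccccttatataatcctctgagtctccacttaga
Mavs: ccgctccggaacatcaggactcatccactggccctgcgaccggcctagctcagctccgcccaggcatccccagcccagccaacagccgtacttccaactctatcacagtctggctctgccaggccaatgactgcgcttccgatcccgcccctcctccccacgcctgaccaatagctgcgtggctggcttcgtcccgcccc
Isg15 held 3 overlapping matches, which began 78, 72 and 66 bases before its start. Ifit1 held a pair of matches that began 104 and 85 bases before its start, and Ifit3 held a pair at 156 and 122 bases before.

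Reads counted in genes ran from 6352070 to 16716169 per library, and 48.6% to 69.7% of the tallied reads of a library fell in no annotated feature. All 9 T cell markers had reads, with a summed level of 9347 to 21685 counts per 1000000 reads counted in genes (CPM). Replicates differed widely, with a biological coefficient of variation of 1.12 to 1.32 over the fits. Traces of genes high in 1 library parted the libraries into 2 sets of 12. The number of sets was fixed in advance, and the same genes gave the levels that follow, so a gap between sets was built in. At the median, a trace stood at 0.205% of its source level within a set and at 0% in the other set. A low level of a gene that is very high in another library of the set thus cannot be told apart from a trace. The first set had all KC pancreas libraries of 4 and 13 weeks, the 3 WT libraries, Sample_131B8, Sample_43B8 and Sample_42B8, and the second set had the rest. In KC pancreas, the contrasts of 9, 20 and 30 weeks with 4 weeks and of KC with WT therefore cannot be told apart from the set.

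The response genes covered a wide range of levels. Per kb of exon, Sp100, a nuclear body protein that restricts DNA viruses, had the highest median, 80.5 CPM per kb (22.0 to 179 over the 24 libraries). Samd9l, a growth and translation regulator, followed with 64.0 (32.0 to 234), and the ranges of Sp100 and Samd9l overlapped over most of their length. Dtx3l, a ubiquitin ligase that works with Parp9, had a median of 25.7 (4.90 to 97.8) and Trim25, a ubiquitin ligase of the Rig-I pathway, 16.2 (1.46 to 107). Neighbours among these genes had overlapping ranges, and the levels of different genes were not tested against each other.

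Within each role, the gene with the highest mean level per kb was as follows. Among the sensing genes it was Mavs, the mitochondrial adaptor of the RNA sensors, at a mean of 26.5 and a median of 2.47 CPM per kb, since 1 library reached 460.3. Irf9, the DNA-binding part of the interferon transcription complex, led the transcription factors with a mean of 13.9 and a range of 1.01 to 89.5. Isg15, a ubiquitin-like modifier, led the Isg15 group, which also holds its protease Usp18 and the ligase Herc6, with a mean of 13.5 and a range of 0 to 125. Ifit1, which binds viral RNA that lacks the cap methylation of host RNA, led the Ifit and Ifi genes with a mean of 25.1 and a range of 0.444 to 134. These leading means rested on a few high libraries, as their medians show: 10.4 for Irf9, 4.52 for Isg15 and 6.44 for Ifit1.

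Oas3, which makes the 2-5A messenger that activates RNase L, led its family with a mean of 9.13 CPM per kb (0.253 to 36.5). Rsad2 (viperin), which makes a chain-terminating nucleotide, led the GTPase and nucleotide group with a mean of 4.46, but its median was 0.272. Isg20, an RNA exonuclease, led the RNA response genes with a mean of 17.5, a median of 7.04 and a highest value of 211. At the low end, Ifi44, an interferon-induced cytoplasmic protein, had reads in 2 libraries, Oasl1, a translation inhibitor of Irf7, in 3, Oas1a in 11 and Mx1, a GTPase that traps viral nucleocapsids, in 12. Oas2 and Mx2 had reads in 14 libraries each, and Dhx58, a sensor related to Rig-I, in 18. The genes of the Ifit, Oas and Mx families and Ifit3 with its close copy Ifit3b share sequence, so reads between copies are uncertain. The spans of Parp9 and Dtx3l, introns included, overlap on opposite strands, and those of Irf7, Irf9, Adar and Rtp4 overlap Phrf1, Rnf31, Chrnb2 and Masp1. Overlap of exons was not checked. Strand use is not given in the sources used here, so how far reads of these neighbours mix is uncertain.

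**Figure D1:**
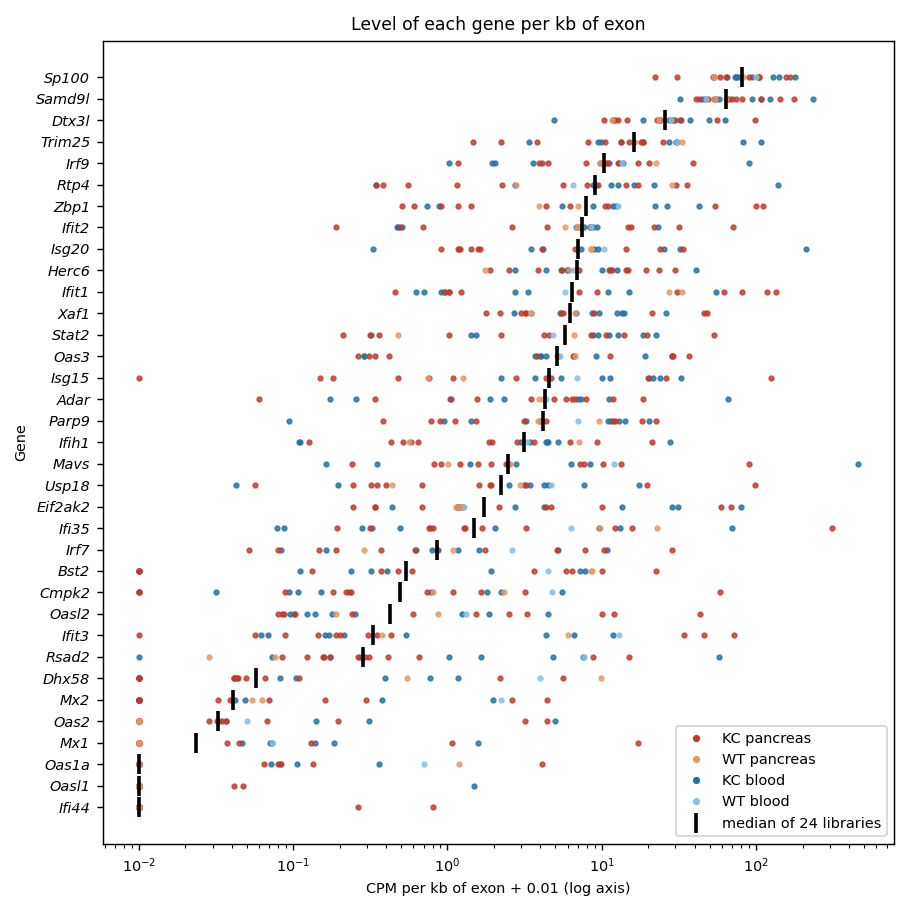
Level of each of the 35 genes in each library, as CPM per kb of exon plus 0.01 on a log axis, coloured by group, with a bar at the median of the 24 libraries. Sp100 and Samd9l lie at the top, most genes span over an order of magnitude within KC pancreas and within KC blood, and the points at 0.01 are libraries with no read.

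Levels varied widely among the libraries of each group. A library had 19 to 32 of the 35 genes at 1 CPM or more and 10 to 27 at 10 CPM or more. The summed level of the 35 genes ran from 1045 CPM in Sample_302P8 to 5277 CPM in Sample_43B8. The median sum was 2197 CPM in the 12 KC pancreas libraries (1045 to 4347) and 2426 CPM in the 9 KC blood libraries (1859 to 5277), so the ranges overlapped. The WT libraries lay inside the KC range of their tissue, with 1663 and 1624 CPM in pancreas and 1983 CPM in blood. The top pair of genes, in most libraries Sp100 and Samd9l, made 33.3% to 80.6% of the sum.

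Single libraries held the highest level of several genes at a time. Sample_205P8, a KC pancreas library of 20 weeks, was highest for 7 of the 35: Irf7, Isg15, Usp18, Ifi44, Cmpk2, Bst2 and Parp9. Its median over the genes was 64.2 CPM, against 5.86 CPM in Sample_204P8 of the same age. Sample_43B8, a KC blood library of 4 weeks, was highest for 6: Ifih1, Trim25, Herc6, Adar, Samd9l and Rtp4. Sample_132P8 of 13 weeks was highest for Zbp1, Ifit2, Ifi35 and Oasl2, Sample_94P8 of 9 weeks for Ifit1, Mx2 and Oas3, and Sample_131B8 of 13 weeks for Irf9, Eif2ak2 and Isg20. The share of all genes that were highest in each of these libraries was not counted, so the counts are no trait of the response genes. The SD of log2(CPM + 1) over the 24 libraries had a median of 1.91 over the 32 of the 35 genes with a mean of at least 1 CPM, against 1.61 over all 10924 genes with such a mean. In bulk RNA, fewer cells with a transcript and less of it per cell cannot be told apart.

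**Figure D2:**
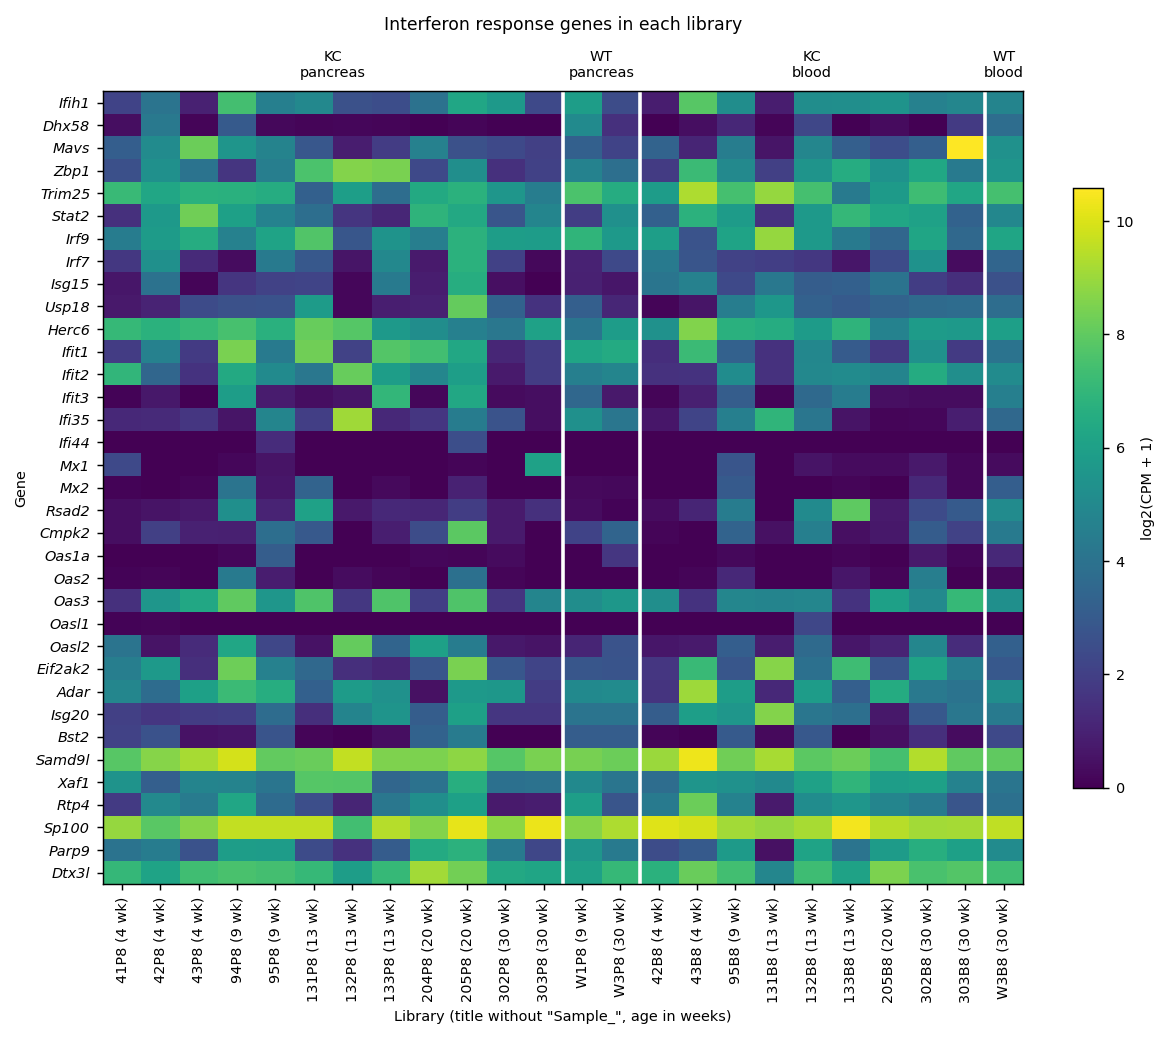
Each row is a gene and each column a library, ordered by group and age, and colour is log2(CPM + 1). High values of Isg15, Usp18, Cmpk2 and Irf7 stand together in Sample_205P8, those of Trim25, Adar and Rtp4 in Sample_43B8, and those of Ifi35, Ifit2 and Oasl2 in Sample_132P8.

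The KC pancreas time course asks how the response genes stood at later ages against 4 weeks. None of the 33 genes tested passed an adjusted p under 0.05 at any age with edgeR, where calls covered 0.0663%, 0.246%, 0.0853% and 0.0663% of the 10552 genes at 9, 13, 20 and 30 weeks. The median log2 fold changes of the 33 genes were 1.07, 1.27 and 2.31 at 9, 13 and 20 weeks, and -1.57 at 30 weeks, while the median over all genes was -0.21, -0.22, -0.23 and -0.22. These 4 comparisons share the 4-week libraries, so their values are not independent. At 30 weeks, 4 of the genes had no read in 1 or both groups, and with those at the bound that a floor of 3 counts over the group allows, or at 0 where no bound could be had, the median was -0.75.

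At 9 weeks, 6 of 33 genes had an unadjusted p under 0.05, all higher, against 3.55% of all genes in that direction, and DESeq2 called none (1.96% of all genes). The RNA-binding Ifit1 had 355 and 18.8 CPM at 9 weeks and 2.69, 24.5 and 2.53 CPM at 4 weeks. Its groups overlapped, since Sample_95P8 lay below Sample_42P8. The log2 fold change was 4.49 ± 1.49 (SE, adjusted p = 0.445, edgeR). Ifit3, of the same family as Ifit1, had 59.3 and 0.732 CPM at 9 weeks and 0.0814, 0.589 and 0 CPM at 4 weeks, a log2 fold change of 7.26 ± 2.47 (adjusted p = 0.459, edgeR). Oas2, of the 2-5A synthetases, had 19.5 and 0.824 CPM against 0.0814, 0.0981 and 0 CPM, a log2 fold change of 7.29 ± 2.58 (adjusted p = 0.497, edgeR). In all 3 genes Sample_94P8 was the high library, and the ages did not overlap for Ifit3 and Oas2. For Ifit3 the gap was only that of 0.732 and 0.589 CPM. The other 9-week library, Sample_95P8, is of the same set and had under 1 CPM of Ifit3 and Oas2, which cannot be told apart from a trace. The same holds for Ifit3 at 4 weeks, since Sample_133P8 of that set had 126 CPM. Without Sample_94P8 the log2 fold changes were 0.38 for Ifit1, 1.12 for Ifit3 and 2.90 for Oas2, and the median of the response genes was -0.14. Of 10 acinar markers, genes of the enzyme-secreting cells of the pancreas, 8 had no read at 9 weeks, with sums of 0.131 and 0.366 CPM against 1447 to 8103 CPM at 4 weeks, and Ctrb1 was among those called lower (adjusted p = 3.65e-08, edgeR). The 9 macrophage and monocyte markers summed to 2.63 and 26.9 CPM at 9 weeks, with Cd14, C1qa and C1qb at 0, and to 107 to 165 CPM at 4 weeks. Their part in the values of the response genes was not tested.

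At 13 weeks, 9 of 33 genes had an unadjusted p under 0.05 in the higher direction and 3 in the lower, against 8.52% and 11.6% of all genes. Zbp1, a sensor of Z-form nucleic acid that can trigger cell death (chr2:173206612-173218923, minus strand), stood apart in all libraries of the age. It had 189.7, 388 and 354 CPM at 13 weeks and 4.97, 38.7 and 15.4 CPM at 4 weeks. The groups did not overlap, and the 13-week libraries were also above the 6 of the other ages, which reached 37.1 CPM at 20 weeks and at most 3.15 CPM at 30 weeks. The log2 fold change was 4.93 ± 1.27 (adjusted p = 0.0777, edgeR), short of the threshold. It was past the threshold with RLE scaling (5.55, adjusted p = 0.0335, edgeR; 0.73% of all genes called), with no low-count filter (4.93, adjusted p = 0.0212, edgeR; 1.08% called) and with DESeq2 (5.55, adjusted p = 0.000220). Leaving out each of the 12 libraries in turn gave 4.46 to 5.71, with adjusted p from 0.0233 to 0.277 in edgeR. The call was made without Sample_131P8, Sample_204P8, Sample_205P8, Sample_302P8 or Sample_303P8.

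The other named genes at 13 weeks rested on 1 library each. Ifi35, a cytosolic protein induced by interferon, had 2.87, 535.8 and 1.30 CPM at 13 weeks and 1.30, 1.37 and 2.21 CPM at 4 weeks. Sample_132P8 was high and the other libraries overlapped. The log2 fold change was 7.87 ± 2.0 (adjusted p = 0.0757, edgeR), and 0.90 without Sample_132P8. Ifit3 had 0.332, 0.517 and 126 CPM at 13 weeks, high in Sample_133P8, with a log2 fold change of 8.50 ± 2.55 (adjusted p = 0.128, edgeR) and 1.81 without that library. Ifit1 was high in 2 of 3 libraries, with 313, 3.23 and 214 CPM. DESeq2 called 7 of the 33 genes at 13 weeks, against 7.53% of all genes: Zbp1, Isg20, Ifit1, Oasl2 and Xaf1 higher, and Mavs and Stat2 lower. RLE scaling moved the median of all genes from -0.22 to 0.22 in this comparison, and that of the response genes from 1.27 to 1.76, so relative to all genes the response genes stood at about the same place.

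Cd3e among the T cell markers, and markers of other cells, moved with the 13-week comparison. The summed level of the 9 T cell markers was 16205 to 21685 CPM at 13 weeks and 11685 to 13314 CPM at 4 weeks. Cd3e, a T cell receptor subunit, was called higher, with a log2 fold change of 2.06 ± 0.42 (adjusted p = 0.0168, edgeR). It had 10005, 15654 and 12237 CPM at 13 weeks and 6143, 5694 and 5132 CPM at 4 weeks. The other T cell markers were not called, with log2 fold changes from -2.08 for Cd247, the only lower one, to 1.65 for Lck. Cd8a stood at 0.36 and Cd8b1 at 0.09, so the sum did not stand for a shared rise. Of 10 acinar markers, 9 had reads at both ages and Amy2a5 was at 0, with sums of 1447 to 8103 CPM at 4 weeks and 83.1 to 483 CPM at 13 weeks. Of 9 macrophage and monocyte markers, 9 had reads at 4 weeks (107 to 165 CPM) and 8 at 13 weeks (2.54 to 153 CPM, Adgre1 at 0). Their part in the values of the response genes was not tested.

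At 20 weeks, 8 of 33 genes had an unadjusted p under 0.05 in the higher direction and 1 in the lower, against 4.74% and 8.61% of all genes. Ifit3 had 0.136 and 79.9 CPM at 20 weeks against 0.0814, 0.589 and 0 CPM at 4 weeks. Cmpk2, a nucleotide kinase that lies beside Rsad2 on chromosome 12, had 4.50 and 244 CPM against 0.326, 3.04 and 0.948 CPM. Usp18, the protease that removes Isg15 and restrains the receptor, had 0.954 and 273.7 CPM against 0.652, 1.08 and 4.42 CPM. In these 3 genes the high library was Sample_205P8, and only the levels of Cmpk2 did not overlap between the ages.

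The log2 fold changes at 20 weeks were 7.81 ± 2.52 for Ifit3 (adjusted p = 0.273, edgeR), 6.78 ± 2.22 for Cmpk2 (adjusted p = 0.277, edgeR) and 6.25 ± 2.17 for Usp18 (adjusted p = 0.308, edgeR). Without Sample_205P8 they were -0.25, 2.01 and -0.90, and the median of the response genes was -0.12. DESeq2 called 4 of the 33 genes higher, Cmpk2, Isg20, Parp9 and Oas2, against 7.02% of all genes called. Isg15 itself had 0.817 and 94.6 CPM at 20 weeks against 0.570, 15.0 and 0.105 CPM at 4 weeks. The 5 markers of plasmacytoid dendritic cells other than Bst2 summed to 277.8 and 1029.6 CPM at 20 weeks, with Cox6a2 at 0, and to 537.6 to 1048 CPM at 4 weeks. Their defining marker Siglech was at 0 and 0.103 CPM at 20 weeks. Tcf4, Runx2 and Ccr9 of that list had log2 fold changes of -8.44, -3.67 and 0.79 (adjusted p of 0.308, 0.360 and 0.692, edgeR), so the sum did not stand for each marker. The macrophage and monocyte markers summed to 2.27 and 9.26 CPM (5 of 9 with reads, with Cd14, C1qa, C1qb and Mrc1 at 0), and 9 of the 10 acinar markers had no read at 20 weeks (sums of 0.103 and 0.136 CPM). The part of these cells in the values was not tested.

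At 30 weeks, 6 of 33 genes had an unadjusted p under 0.05, all lower, against 7.18% of all genes in that direction, and 9 of 33 (27.3%) had a positive fold change against 45.4% of all genes. The median of -1.57 ran from -2.04 to -0.55 when each library was left out in turn, the latter without Sample_43P8. Dhx58, which tunes RNA sensing, had no read in both 30-week libraries and 0.326, 18.3 and 0.105 CPM at 4 weeks. Pooled over the libraries of each age, it was at least 29.7-fold lower at 30 weeks than at 4 weeks, against a floor of 3 counts over the group. The edgeR fit gave an adjusted p of 0.373, and Sample_42P8 was the high library. Without Sample_42P8 the gene was not tested. Bst2 (tetherin), which holds budding virus at the cell surface, had no read at 30 weeks and 3.26, 5.30 and 0.421 CPM at 4 weeks, at least 15.2-fold lower on the same floor (adjusted p = 0.375, edgeR).

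Ifit2, an RNA-binding relative of Ifit1, had 0.707 and 2.68 CPM at 30 weeks and 124.7, 10.2 and 1.90 CPM at 4 weeks. The groups overlapped, with a log2 fold change of -4.59 ± 1.89 (adjusted p = 0.377, edgeR) and -1.73 without Sample_41P8. Zbp1 stood at 1.77 and 3.15 CPM, below its 4-week libraries. DESeq2 called 3 of the 33 genes lower, Mavs, Rtp4 and Bst2, against 5.42% of all genes called. The 30-week levels of Mavs, 4.01 and 2.99 CPM, cannot be told apart from a trace of Sample_303B8 in the same set. Siglech had 2.93, 40.8 and 190.5 CPM at 4 weeks and 0.353 and 0.157 CPM at 30 weeks, where the 5 plasmacytoid dendritic markers summed to 176.5 and 187.7 CPM with Cox6a2 at 0. Of the 10 acinar markers, 8 had no read at 30 weeks (sums of 0.353 and 59.0 CPM), and Ctrb1, Cpa1, Cel and Reg1 were called lower (adjusted p of 6.73e-08 to 0.0411, edgeR). The macrophage and monocyte markers summed to 63.8 and 292.7 CPM, with Cd14, C1qa, C1qb and Fcgr1 at 0. The part of these cells in the values was not tested.

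**Figure D3:**
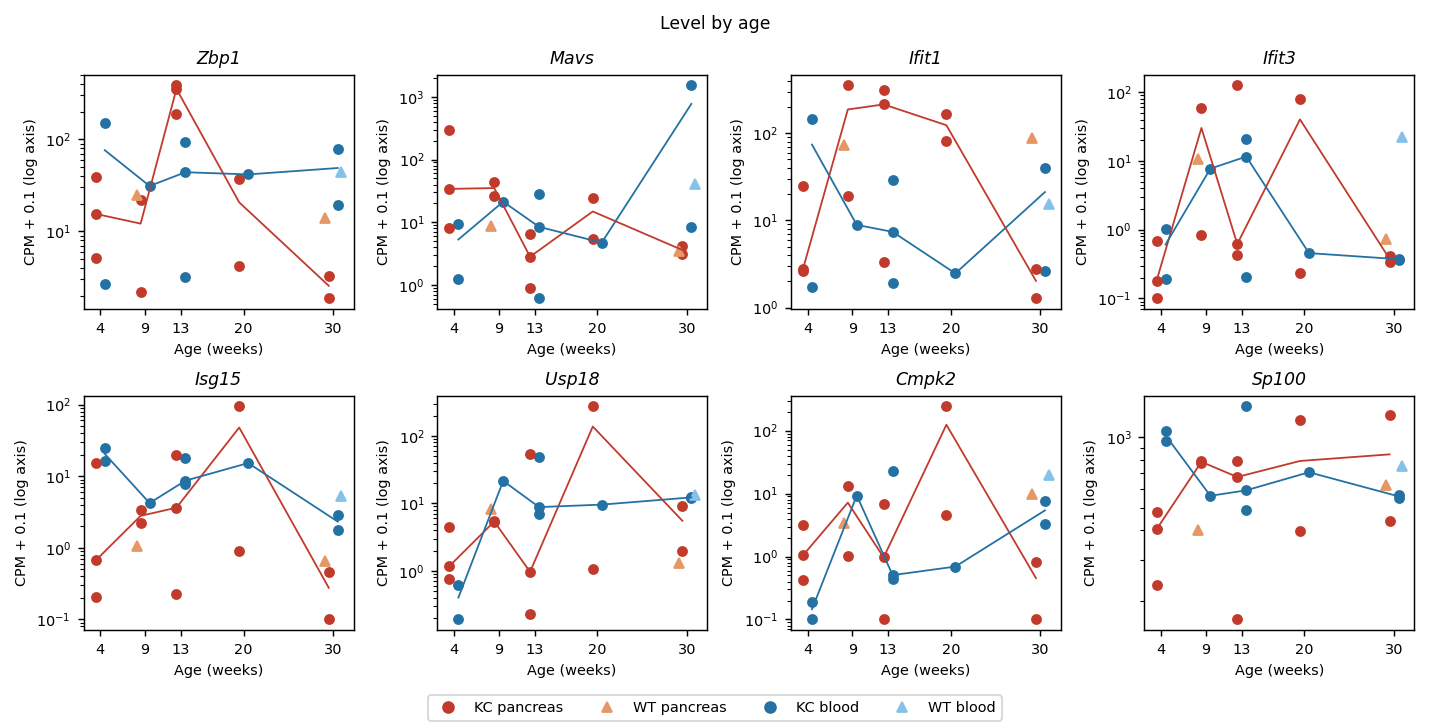
CPM plus 0.1 on log axes against age in weeks for 8 genes, with 1 point per library and lines through the median of each age in KC pancreas (red) and KC blood (blue). The 13-week KC pancreas libraries of Zbp1 lie between 189.7 and 388 CPM, above the other KC pancreas libraries, while Isg15, Usp18 and Cmpk2 are high in 1 library of 20 weeks and Mavs in 1 KC blood library of 30 weeks.

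Linear trends with age, in log2 per 10 weeks, ask whether levels moved steadily in each tissue. In KC pancreas 0 of 28 genes tested passed with edgeR (0.293% of all 9555 genes did), and 2 had an unadjusted p under 0.05 against 8.95% of all genes. Mavs (chr2:131234063-131248025, plus strand) had 7.98, 33.9 and 299 CPM at 4 weeks, 44.3 and 25.7 at 9 weeks and 6.41, 0.775 and 2.71 at 13 weeks. It had 24.2 and 5.25 CPM at 20 weeks and 4.01 and 2.99 CPM at 30 weeks. Sample_303B8 of KC blood, in the same set as these libraries, had 1539.6 CPM of Mavs. The levels of 2.99 to 5.25 CPM thus cannot be told apart from a trace. The highest KC pancreas library was Sample_43P8 of 4 weeks, and the ages overlapped. The trend was -1.80 ± 0.64 (adjusted p = 0.313, edgeR), and -0.88 without Sample_43P8.

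The trends of Cmpk2 and Usp18 in KC pancreas turned on Sample_205P8. They were 3.05 ± 1.38 for Cmpk2 (adjusted p = 0.499, edgeR) and 2.70 ± 1.34 for Usp18 (adjusted p = 0.576, edgeR), and without that library -0.56 and 0.20. DESeq2 called 3 of the 28 genes, Cmpk2 upward and Zbp1 and Mavs downward, against 4.42% of all genes. With no low-count filter edgeR called 1 of 35, Dhx58 downward, against 4.76% of all genes. The median trend of the 28 genes was -0.29, against -0.04 over all genes, and -0.27 against 0.02 with the library set as a term. Without the 4-week libraries it was -1.03, and leaving out 1 library at a time gave -0.74 to 0.62, with a positive sign without Sample_302P8, Sample_303P8 or Sample_94P8. The genes not tested for low counts were Dhx58, Ifi44, Mx1, Mx2, Oas1a, Oas2 and Oasl1.

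In KC blood 0 of 29 genes passed the trend test with edgeR, where 0% of 9933 genes were called, and 4 had an unadjusted p under 0.05 against 8.76% of all genes. DESeq2 called 1 of them, Mavs, against 3.19% of all genes, and with no low-count filter edgeR called 1 of 34, Mavs, against 0.705%. Of the 29 genes, 7 (24.1%) had a positive trend against 43.9% of all genes, and the median was -0.65 against -0.12. With the library set as a term the medians were -0.13 and -0.01. Mavs in KC blood had 9.27 and 1.13 CPM at 4 weeks, 21.2 at 9 weeks, 0.509, 27.9 and 8.34 at 13 weeks, 4.62 at 20 weeks and 8.21 and 1539.6 at 30 weeks. All libraries but Sample_303B8 lay at 27.9 CPM or below, and the 4.62 CPM at 20 weeks cannot be told apart from its trace. The trend was 2.39 ± 0.58 (adjusted p = 0.175, edgeR), and -0.36 without that library.

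Rtp4, a chaperone of receptors that also restricts flaviviruses, had 18.7 and 294 CPM at 4 weeks, 24.6 at 9 weeks, 0.712, 34.2 and 46.2 at 13 weeks, 26.9 at 20 weeks and 19.6 and 5.84 at 30 weeks. Its trend was -1.57 ± 0.59 (adjusted p = 0.479, edgeR). Adar, which edits adenosine in double-stranded RNA and so limits its sensing, had 2.0 and 532 CPM at 4 weeks and 1.32 to 90.3 CPM at the later ages. Its trend was -1.58 ± 0.63 (adjusted p = 0.507, edgeR). Both genes were highest in Sample_43B8, without which the trends were -0.58 for Rtp4 and 0.21 for Adar.

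The difference of the trends between tissues was the 1 comparison with a call among the response genes. Of 32 genes tested, 1 passed with edgeR, against 0.0543% of 11059 genes, and 3 had an unadjusted p under 0.05, against 8.33%. Mavs had a lower trend in KC pancreas than in KC blood, with a difference, pancreas minus blood, of -4.17 ± 0.85 on the log2 scale per 10 weeks (adjusted p = 0.0407, edgeR). The call rested on single libraries, and low Mavs levels in the set of Sample_303B8 cannot be told apart from a trace of it. Without Sample_303B8 the difference was -1.40 (adjusted p = 0.881, edgeR), and leaving out each of the 21 libraries in turn ended the call in 13 cases, with values of -4.80 to -1.40. With RLE scaling the adjusted p was 0.0754, with the library set as a term 0.105 and without the 4-week libraries 0.631, and DESeq2 called none of the 32 genes (2.19% of all genes).

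The other named genes of this comparison did not pass. Dhx58, with no read in the 30-week libraries of KC pancreas, had an adjusted p of 0.315 with edgeR. In KC blood it had no read in 3 of the 9 libraries and at most 3.78 CPM, and in KC pancreas it reached 18.3 CPM in Sample_42P8. Sp100 differed by 1.10 ± 0.44 (adjusted p = 0.412, edgeR). Its levels were 166 to 1249 CPM in KC pancreas with a median of 577, and 486 to 1354 CPM in KC blood with a median of 593, so the tissues overlapped. The median difference of trends over the 32 genes was 0.49, against 0.07 over all genes. It was -0.57 without the 4-week libraries (0.02 over all genes) and -0.09 without Sample_205P8, so its sign turned.

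In KC blood, the 3 libraries of 20 and 30 weeks were also compared with the 3 of 4 and 9 weeks. With edgeR 0 of 29 genes passed (0.0805% of 9933 genes did), DESeq2 called none of the 29 (1.96% of all genes), and 7 had an unadjusted p under 0.05 (8.11% of all genes), of which 6 were lower. Mavs had a log2 fold change of 5.28 ± 1.59 (adjusted p = 0.245, edgeR), and -0.96 without Sample_303B8. With no low-count filter edgeR called it, the 1 call among 34 genes, against 0.339% of all genes. Ifi35 had 0.119, 0.132 and 0.835 CPM at the later ages against 0.545, 3.50 and 22.6 CPM at the earlier ones. The groups overlapped through Sample_303B8 and Sample_42B8, with a log2 fold change of -4.53 ± 1.80 (adjusted p = 0.453, edgeR). Rtp4 differed by -3.35 ± 1.49 (adjusted p = 0.527, edgeR), and by -0.70 without Sample_43B8. The median over the genes was -1.09 (all genes -0.08), and 0.39 without Sample_43B8. With the library set as a term it was -0.35 (all genes -0.23).

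KC pancreas was compared with KC blood with age as a factor, to ask whether the response differed between the tissues. Of 32 genes tested with edgeR, 0 passed, against 0.0904% of 11059 genes, and 3 had an unadjusted p under 0.05 (9.38%), against 9.85% of all genes. DESeq2 called 1, Oasl2, against 4.34%. The median log2 fold change was 0.04, with -0.12 over all genes. It was 0.07 with the library set as a term, -0.37 within the first set and -0.06 within the second.

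Isg20 ranged from 1.66 to 62.9 CPM in KC pancreas with a median of 2.95, and from 0.593 to 392.2 CPM in KC blood with a median of 16.6. The ranges overlapped, and the log2 fold change was -2.48 ± 0.93 (adjusted p = 0.316, edgeR), and -1.47 without Sample_131B8. Trim25 ranged from 8.402 to 143.5 CPM in KC pancreas (median 81.4) and from 19.2 to 616 CPM in KC blood (median 157.7), a log2 fold change of -1.59 ± 0.66 (adjusted p = 0.389, edgeR) and of -0.79 without Sample_131B8. Oasl2, a relative of the 2-5A synthetases with ubiquitin-like repeats, ranged from 0.442 to 274 CPM in KC pancreas (median 6.71) and from 0.545 to 28.3 CPM in KC blood (median 1.07). Its log2 fold change was 3.40 ± 1.44 (adjusted p = 0.403, edgeR), and 1.69 without Sample_132P8. The platelet markers moved with the tissue, with sums of 1.89 to 94.2 CPM in KC pancreas (5 of 6 with reads, Gp1bb at 0) and 39.7 to 291 CPM in KC blood (6 of 6), and their part in these values was not tested.

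The leading genes of the other roles overlapped between the tissues. Irf9 had 6.20 to 209 CPM in KC pancreas (median 56.0) and 5.45 to 482 CPM in KC blood (median 52.6). Oas3 had 1.79 to 258 CPM (median 46.3) and 1.95 to 135 CPM (median 28.4). Isg15 had 0 to 94.6 CPM (median 1.46) in KC pancreas and 1.67 to 24.5 CPM (median 8.57) in KC blood. The medians of Isg15 thus stood lower in pancreas while its highest library was of pancreas. Ifit1 had 1.18 to 355 CPM (median 21.7) and 1.64 to 146 CPM (median 7.30), and Rsad2 0.326 to 65.1 CPM (median 1.16) and 0 to 249.5 CPM (median 4.37).

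The ranges of further response genes also overlapped between the tissues. Ifih1 (Mda5), a sensor of long double-stranded RNA, had 0.948 to 173 CPM in KC pancreas and 0.814 to 225 CPM in KC blood. Eif2ak2 (Pkr), the kinase that stops translation on double-stranded RNA, had 1.19 to 349.9 CPM and 2.18 to 407 CPM. Stat2 had 1.19 to 314 CPM and 1.83 to 132.2 CPM, and Irf7, the amplifier of interferon transcription, 0.157 to 107 CPM and 0.278 to 41.04 CPM. Each of these genes varied over more than an order of magnitude within a tissue.

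**Figure D4:**
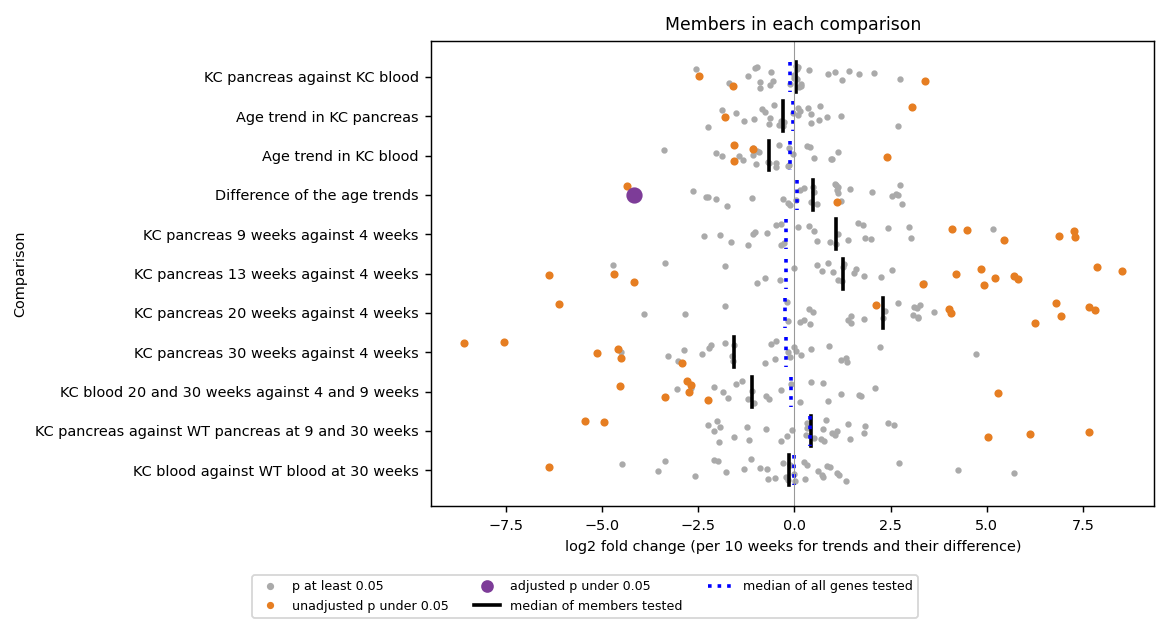
Log2 fold change of each tested response gene in the 11 comparisons, per 10 weeks for the trends and their difference, with bars at the median of the response genes (black) and of all genes tested (dotted blue). The purple point is Mavs in the difference of trends, at -4.17, the 1 gene past the adjusted p of 0.05, and orange points had an unadjusted p under 0.05. Values of genes with no read in a group are fitted ones and no bound.

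KC was compared with WT in pancreas over 9 and 30 weeks, with 4 KC and 2 WT libraries of those ages. With edgeR 0 of 34 genes passed (0.226% of 12374 genes did), 5 had an unadjusted p under 0.05 (5.79% of all genes) and DESeq2 called 1, Mx1 (1.28% of all genes). Mx1 had no read in both WT libraries, 0.131 and 0.458 CPM in KC at 9 weeks and 0 and 64.9 CPM at 30 weeks. Pooled over libraries it was at least 96.3-fold higher in KC on the floor of 3 counts over the group, and Sample_303P8 was the high library. The adjusted p was 0.757 with edgeR. Bst2 had 7.79 and 7.66 CPM in the WT libraries and 0.526, 5.76, 0 and 0 CPM in KC, so the groups did not overlap. The adjusted p was 0.757 with edgeR, and no fold is given because both KC libraries of 30 weeks had no read.

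Dhx58 had 32.3 and 1.76 CPM in WT pancreas and 7.10, 0.183, 0 and 0 CPM in KC, and the groups overlapped (adjusted p = 0.811, edgeR). The median over the 34 genes was 0.42, beside 0.41 over all genes, and -0.50 without Sample_94P8 (0.24 over all genes). The acinar markers summed to 3272 and 871 CPM in the WT libraries and to at most 59.0 CPM in the KC libraries of 9 and 30 weeks, with 9 of 10 markers read in WT and Amy2a5 at 0. The 5 plasmacytoid dendritic markers other than Bst2 summed to 348 and 411 CPM in WT, with Cox6a2 at 0. In KC they summed to 367 and 419 CPM at 9 weeks and to 176.5 and 187.7 CPM at 30 weeks. Siglech had 1.42 and 65.2 CPM in WT and 0.157 to 0.549 CPM in these KC libraries. Its log2 fold change was -4.91 (adjusted p = 0.757, edgeR), and those of Tcf4, Runx2 and Ccr9 were -1.39, -1.51 and -0.07. The part of these cells in the values was not tested.

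In blood, the 2 KC libraries of 30 weeks were compared with the 1 WT library, whose spread was assumed to be like that of the other groups. With edgeR 0 of 34 genes passed, 0% of 12496 genes were called, 1 had an unadjusted p under 0.05 (2.83% of all genes), and DESeq2 called none of the 34 (0.088% of all genes). Ifit3 had 0.265 and 0.278 CPM in KC and 22.4 CPM in WT, a log2 fold change of -6.36 ± 3.06 (adjusted p = 1, edgeR). Mavs had 8.21 and 1539.6 CPM in KC and 40.3 CPM in WT, with 4.25 ± 2.26, and -2.43 without Sample_303B8. Ifi35 had 0.132 and 0.835 CPM in KC and 10.9 CPM in WT, with -4.49 ± 2.45 (adjusted p = 1 for both, edgeR). With the library set as a term Ifi35 stood at 0.90, and the medians were -1.07 for the response genes and -1.73 for all genes, against -0.13 and 0 without that term. For the pair of WT libraries of 30 weeks, with 1 library a side and no test, Ifit1 had 88.5 CPM in pancreas and 15.4 CPM in blood, Ifit3 0.638 and 22.4 CPM, and Rsad2 0.0798 and 33.1 CPM.

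Other genes of the pathway were read from 3 further lists. The type I interferon ligands were close to undetected: Ifnb1, Ifna2, Ifna4 and Ifna5 had no read in the 24 libraries and Ifna1 had 2 reads in 1 library. The receptor chains Ifnar1 and Ifnar2 had reads in every library, with medians of 95.4 CPM (12.6 to 229) and 155.0 CPM (21.6 to 496). The kinase Jak1 had 799 to 2336 CPM. The chemokine Cxcl10, a target of interferon in other cells, had 7 reads in all.

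None of the genes of these lists passed in any of the 11 comparisons with edgeR. Of 21 tested genes of the receptor and signalling list, 4 had an unadjusted p under 0.05 in the higher and 2 in the lower direction at 13 weeks, against 8.52% and 11.6% of all genes, and DESeq2 called 5, against 7.53% of all genes. Of 49 other interferon-induced genes, 9 were higher and 7 lower at that p and age, and DESeq2 called 10. Of 21 genes of the interferon gamma list, 6 were higher at that p at 13 weeks and 6 at 20 weeks (4.74% of all genes at 20 weeks), and none was lower. DESeq2 called 5 and 2 of them, against 7.53% and 7.02% of all genes. The median log2 fold changes of that list at 9, 13, 20 and 30 weeks were 1.02, 1.40, 1.52 and 0.26. Ifng, the cytokine of that list, had the smallest p of the list in KC pancreas against KC blood and was not called. Its log2 fold change was 3.60 ± 1.38 (adjusted p = 0.322, edgeR). Its medians were near the floor, 0.173 CPM in KC pancreas and 0.116 CPM in KC blood, and its highest library had 139 CPM. The fold change therefore does not describe the typical library.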

How the data were processed

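RNA of sorted CD8 T cells was extracted with a spin-column kit, per the labels. For each library the authors deposited the count of reads per gene symbol, with no normalization, and tallies of unassigned reads, which were left out of the totals. The submitters' processing notes name TopHat, SAMtools, HTSeq and DESeq and the build mm10. Versions, annotation and strand use are not given in the sources used here. Groups and ages came from the labels.

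CPM is a count per 1000000 reads counted in genes, and levels per kb use the merged exons of the GENCODE annotation of mm10. Depth was 6352070 to 16716169 counts per library. Low-count genes were dropped by filterByExpr (minimum count 10), libraries were scaled by TMM, and each comparison was tested on the whole table by the robust quasi-likelihood test of edgeR 4.0.16 (two-sided, R 4.3.3). A gene was called when its p-value, adjusted by Benjamini-Hochberg over all genes of that comparison, was under 0.05. Adjusted p-values come from edgeR or, where named, from DESeq2 1.42.0. The SE given is the log2 fold change, without its sign, divided by the root of F. Of the 11 comparisons, that of the tissues had age as a factor, the trends had age as a number per 10 weeks, and the rest were contrasts of group means. The WT pair of 30 weeks was described without a test. The fits were also run on simulated counts that were much less spread than these libraries, so that run does not show how the fits perform here.

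Library sets came from 95 trace genes, which reached 100 CPM in a single source library and no more than 5% of that elsewhere, with 14 source libraries. They were detected in 92.4% of cases in the same set and in 47.7% in the other. The sets were formed from detection of these same genes, so this gap is no test of the sets. Named in each comparison are the members called and the 3 with the smallest p, with levels also for the gene of highest mean per kb in each role. The values of 1 gene of the pathway lists are not reported here. The members, lists and tests were chosen with earlier results of these data known. Alternatives were RLE scaling, DESeq2, no low-count filter, each library left out, the set as a term or alone, no age term, the title number as a block, and no 4-week libraries.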

Additional observations from a re-analysis of the deposited data

Results flagged for a closer look

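In the 9 KC blood libraries, 24 of the 34 response genes with reads had 1 library far above the others in CPM, by the gap to the next library divided by the range. Chance alone marks about 1 in 20 such groups when values are normal, and CPM values are skewed: on log2(CPM + 1), 6 of the 34 were marked. How many of all genes would be marked was not counted, so these counts do not set the response genes apart. The high library was Sample_43B8 of 4 weeks for Ifih1 (225 CPM), Herc6 (381 CPM), Ifit1 (146 CPM), Adar (532 CPM), Samd9l (1269 CPM) and Rtp4 (294 CPM). It was Sample_131B8 of 13 weeks for Irf9 (482 CPM), Usp18 (48.3 CPM), Ifi35 (119.9 CPM), Eif2ak2 (407 CPM) and Isg20 (392.2 CPM). It was Sample_302B8 of 30 weeks for Irf7 (41.04 CPM), Ifit2 (90.7 CPM), Oas1a (0.662 CPM), Oas2 (22.2 CPM) and Oasl2 (28.3 CPM). Sample_303B8 of 30 weeks was high for Mavs (1539.6 CPM) and Oas3 (135 CPM), and Sample_95B8 of 9 weeks for Mx1 (5.92 CPM) and Mx2 (7.08 CPM). Sample_132B8 was high for Cmpk2 (22.8 CPM) and Oasl1 (3.84 CPM), and Sample_133B8 for Rsad2 (249.5 CPM) and Xaf1 (122 CPM), both of 13 weeks.

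The age trend of Mavs differed between KC pancreas and KC blood, by -4.17 on the log2 scale per 10 weeks (adjusted p = 0.0407, edgeR). Without Sample_303B8 the difference was -1.40 (adjusted p = 0.881, edgeR).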

How the results depend on the processing

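The counts of response genes called depended on the tool. DESeq2 called 1 between tissues, 3 and 1 for the trends in KC pancreas and KC blood, 0 for the difference of trends, 7, 4 and 3 at 13, 20 and 30 weeks and 1 between KC and WT pancreas. With no low-count filter edgeR called 1 for the trend in KC pancreas (Dhx58), 1 for that in KC blood (Mavs), 4 at 13 weeks (Ifi35, Zbp1, Ifit3 and Ifit1) and 1 between later and earlier KC blood (Mavs), where 4.76%, 0.705%, 1.08% and 0.339% of all genes were called. RLE scaling gave 2 at 13 weeks (Zbp1 and Ifi35, with 0.73% of all genes called) and 0 for the difference of trends, as did the library set as a term (0) and leaving out the 4-week libraries (0). The set as a term turned Ifi35 in KC against WT blood to 0.90. The cause of these changes was not tested.

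Leaving out 1 library at a time gave 0 to 1 calls for the trend in KC blood, with Mavs called without Sample_302B8, 0 to 1 for the difference of trends, 0 to 3 at 13 weeks, with at least 1 call when any 1 of the 7 libraries of 13, 20 or 30 weeks was left out, and 0 to 1 between later and earlier KC blood, with Mavs called without Sample_133B8. The median of the genes ran from -0.14 to 1.497 at 9 weeks, from -0.12 to 2.66 at 20 weeks and from -1.42 to 0.39 between later and earlier KC blood, and its sign turned without Sample_94P8, Sample_205P8 and Sample_43B8 in that order. It also turned for the trend in KC pancreas (-0.74 to 0.62), for the difference of trends (-0.09 without Sample_205P8), between KC and WT pancreas (-0.50 without Sample_94P8) and between tissues (-0.20 to 0.21, in 9 of 21 cases). RLE scaling and DESeq2 turned it between KC and WT blood, from -0.13 to 0.02. The Mavs call in the difference of trends was lost without Sample_131P8, Sample_204P8, Sample_205P8, Sample_302P8, Sample_303P8, Sample_43P8, Sample_95P8, Sample_132B8, Sample_133B8, Sample_302B8, Sample_303B8, Sample_43B8 or Sample_95B8. Trends ran from -0.56 to 3.51 for Cmpk2 in KC pancreas, and in KC blood from -0.36 to 3.01 for Mavs and from -1.76 to 0.21 for Adar. At 20 weeks Ifit3 ran from -0.25 to 9.75 and Usp18 from -0.90 to 7.73. Mavs ran from -0.96 to 5.87 between later and earlier KC blood and from -2.43 to 5.25 between KC and WT blood.

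With the number in the titles as a replicate block, 18 KC libraries gave 0 calls between tissues and a median of 0.14. The deviations of same-numbered libraries from the means of their tissue and age had correlations of -0.07 to 0.01. With few libraries per age and a wide spread, these cannot show whether such libraries came from the same animal. The main comparison of the tissues treated them as unpaired. The set could not be fitted as a term for ages against 4 weeks in KC pancreas or for KC against WT pancreas. Ifi44, Oasl1 and Oas1a reached 1 CPM in 2, 1 and 3 of the 24 libraries. Where a gene had no read, a level under 3 counts was not detectable.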

Other observations

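Levels of the response genes were also compared with each other across the 24 libraries, which share depth, library set and group and are therefore given with no p. The 32 genes with a mean of at least 1 CPM gave 496 pairs, with a median Spearman correlation of 0.17, against 0.12 over the pairs of all 10924 such genes. Pairs above 0.5 made 6.05% of the pairs of response genes and 4.34% of all gene pairs. The pairs most alike were Cmpk2 and Bst2 (0.79), Ifit2 and Oasl2 (0.79), Cmpk2 and Parp9 (0.69) and Stat2 and Rtp4 (0.68). The overlapping neighbours Parp9 and Dtx3l stood at 0.66, and Irf7 and Isg15 at 0.62. Herc6 and Parp9 were the least alike, at -0.47. No pair lay below -0.5.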
